A study of Mus musculus with 46 samples.

Results

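The Cyp2c cluster on mouse chromosome 19, from Cyp2c55 to Cyp2c70, was examined as the stretch chr19:39050000-40350000 (mm9), a window of 1300 kb. Its members are the genes Cyp2c55, Cyp2c29, Cyp2c38, Cyp2c39, Cyp2c40, Cyp2c37, Cyp2c54, Cyp2c50 and Cyp2c70. Every peak of the 42 immunoprecipitated libraries that overlapped this window was taken, and overlapping peaks were merged into regions. This gave 79 regions of 155509 in the genome, and 4943 regions lay on the rest of chromosome 19. The window was set by a rule on position that uses none of the values below. The members, gene lists and tests were chosen with earlier results of these data known.

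The livers came from male CD-1 mice, an outbred strain, injected once with TCPOBOP at 3 mg/kg, which activates CAR, a nuclear receptor of the liver, or with the vehicle, corn oil holding 1% DMSO. Chromatin of single, not pooled, livers was immunoprecipitated with antibodies to RXRa (RXR below), CEBPa or CEBPb and sequenced, a method known as ChIP-seq. RXR at 3 h was measured in 3 TCPOBOP livers (B1, B3, B4) and 3 vehicle livers (A1, A3, A4) of mice aged 8 weeks. CEBPa and CEBPb at 3 h were measured in 3 TCPOBOP livers (D44, D45, D46) and 3 vehicle livers (A44, A45, A46) of mice aged 7 weeks. At 27 h RXR, CEBPa and CEBPb came from 1 set of livers, 4 given TCPOBOP (D1 to D4) and 4 given vehicle (C1 to C4), of mice aged 8 weeks. The mice were wild-type. Input chromatin without immunoprecipitation came from 2 TCPOBOP and 2 vehicle livers at 3 h.

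RXRa is the partner with which CAR, PXR, PPARa, LXR and FXR bind DNA as a pair, typically at direct repeats of the hexamer AGGTCA or of close variants, and it is therefore present at many sites in liver whatever ligand is given. CEBPa and CEBPb are leucine-zipper factors of hepatocytes that recognise the same palindromic element. CAR with RXR is known for switching on genes of drug metabolism, and several Cyp2c genes of the mouse are among those reported to respond to CAR agonists. The peaks of an RXR library do not tell which partner was bound.

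In the order of the RefSeq gene table (GRCm38.p6), Cyp2c55 comes first. It encodes an enzyme that oxidises arachidonic acid and is inducible in liver by CAR and PXR ligands. Cyp2c65 and Cyp2c66, which are mostly intestinal, and the pseudogene Cyp2c53-ps follow. Cyp2c29, an abundant liver enzyme that epoxidises arachidonic acid and is a known target of CAR, comes next. Cyp2c39, a retinoic acid hydroxylase, and Cyp2c38, another arachidonic acid oxidase, stand beside it, with the pseudogene Cyp2c72-ps between them. Cyp2c67, Cyp2c68, Cyp2c40 and Cyp2c69 form a run of close copies, of which Cyp2c40 hydroxylates arachidonic acid. After the pseudogene Cyp2c71-ps come Cyp2c37, Cyp2c54 and Cyp2c50, which metabolise arachidonic and linoleic acid. Cyp2c70, which makes muricholic acids from chenodeoxycholic acid and so sets the bile acid pool of the mouse, closes the cluster. The table holds 14 protein-coding Cyp2c genes and 3 Cyp2c pseudogenes here. No annotation of mm9 was used, so a region is placed by its position in the window and no region is assigned to a gene. In GRCm38.p6 the promoters of Cyp2c55 and Cyp2c70 lie at chr19:39006769-39007018 and chr19:40187287-40187536, less than 1300 kb apart. Part of the window can therefore lie outside the Cyp2c genes, and which part was not determined.

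RefSeq promoters (GRCm38.p6) were found for 13 of the 14 protein-coding genes, all except Cyp2c54, with a second start for Cyp2c39. The promoters of 5 genes are shown over the 250 bases before the start, because they carry the matches to the elements of the studied factors or show how alike the copies are. Capitals mark a match to AGGTCA in the first 2 and to TTGCNNAA, a CEBP element, in Cyp2c37 and Cyp2c69, on either strand. Their coordinates belong to GRCm38.p6 and cannot be set against the mm9 positions of the regions.
Cyp2c29, chr19:39286835-39287084, plus strand: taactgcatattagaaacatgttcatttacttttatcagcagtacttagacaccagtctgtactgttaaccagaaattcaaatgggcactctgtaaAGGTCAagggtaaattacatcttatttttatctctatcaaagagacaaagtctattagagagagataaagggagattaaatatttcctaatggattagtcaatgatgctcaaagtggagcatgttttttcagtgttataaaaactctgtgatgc
Cyp2c70, chr19:40187287-40187536, minus strand: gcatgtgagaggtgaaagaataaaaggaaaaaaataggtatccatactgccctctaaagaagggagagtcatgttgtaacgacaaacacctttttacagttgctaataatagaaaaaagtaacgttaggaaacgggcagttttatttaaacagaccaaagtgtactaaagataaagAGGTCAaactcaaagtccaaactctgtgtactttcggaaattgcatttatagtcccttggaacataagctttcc
Cyp2c37, chr19:39992174-39992423, plus strand: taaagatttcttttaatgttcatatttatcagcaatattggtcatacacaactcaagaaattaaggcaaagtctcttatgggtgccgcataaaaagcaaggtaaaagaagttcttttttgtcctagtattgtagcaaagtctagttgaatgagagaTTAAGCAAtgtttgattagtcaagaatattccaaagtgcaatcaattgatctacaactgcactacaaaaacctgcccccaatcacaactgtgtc
Cyp2c69, chr19:39886770-39887019, minus strand: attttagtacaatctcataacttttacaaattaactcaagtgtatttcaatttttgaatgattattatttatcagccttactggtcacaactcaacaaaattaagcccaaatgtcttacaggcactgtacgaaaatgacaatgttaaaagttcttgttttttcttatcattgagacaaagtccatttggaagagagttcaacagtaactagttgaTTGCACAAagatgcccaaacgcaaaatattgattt
Cyp2c40, chr19:39812815-39813064, minus strand: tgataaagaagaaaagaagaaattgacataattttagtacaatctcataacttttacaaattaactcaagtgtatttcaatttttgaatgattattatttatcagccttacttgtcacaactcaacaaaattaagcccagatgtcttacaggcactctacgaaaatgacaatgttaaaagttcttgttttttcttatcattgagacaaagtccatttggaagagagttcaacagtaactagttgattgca

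The match to AGGTCA began 74 bases before the start of Cyp2c70 and farther upstream in Cyp2c29. One of the starts of Cyp2c39 also held it, so it was found in 3 of 14 promoters, while 14.02% of all 32851 mouse promoters of the same length held it. TTGCNNAA was found in 3 of 14, those of Cyp2c67, Cyp2c69 and Cyp2c37, against 9.564% of all promoters. Exact direct repeats of AGGTCA with 4 or with 1 base between the copies, named DR4 and DR1 (a repeat counts as a match to AGGTCA too), were found in 0 of 14, against 0.01522% and 0.03348% of all promoters. The promoters of Cyp2c40 and Cyp2c69 had 217 identical bases of 220 aligned (98.64%), and those of Cyp2c68 and Cyp2c69 had 232 of 246. Over 90 pairs of these promoters the median was 155.5 identical bases. Reads from such copies can be split between them.

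Each library has its own list of peaks, which gives positions and no height, score or read number. The 42 lists held 11899 to 55513 peaks (median 31213.5), and 4 to 41 of these lay in the window (median 18.5). The depth of the libraries is unknown, and a missing peak may be signal below the caller's threshold. The 4 input lists held 7 to 1480 peaks and 0 in the window. List lengths differed within groups as well: vehicle liver A1 had the longest RXR list at 3 h, with 52727 peaks, against 22117 and 32858 in vehicle livers A3 and A4. Each liver of a group is a separate animal, and the p-values measure the spread between these livers.

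All 3 factors had peaks in the window. RXR was found in at least 1 library at 35 of the 79 regions (44.3%), CEBPa at 42 (53.2%) and CEBPb at 58 (73.4%), against 47.7%, 49.6% and 62.3% of all regions of the genome. RXR alone held 18 regions and CEBPb alone 18 (22.8% each, against 27.0% and 19.7% genome-wide), while CEBPa alone held 1 (1.27%, against 10.01% genome-wide). CEBPa and CEBPb without RXR held 25 regions (31.6%, against 22.6%), and all 3 factors met at 14 (17.7%, against 16.2%). Peaks of a single library made up 20 regions (25.3%, against 35.7%). These shares describe the window and were not tested.

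The regions were spread unevenly along the window. The first 700 kb held 50 regions, and 15 of these lay between 300 and 400 kb from the window's start. No peak of any factor in any of the 42 lists fell on chr19:39722903-40019485, a stretch of 296583 bp that was the fifth longest of 5021 gaps between regions on chromosome 19, where the median gap was 5623 bp. How reads that match several places were treated is not known. Whether reads could be placed in this stretch was not tested. The last 100 kb held 14 regions, of which 12 had RXR, 9 CEBPa and 9 CEBPb. Whether these lie within the cluster or past Cyp2c70 was not determined. Between 900 and 1200 kb RXR was found at 4 of 15 regions.

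**Figure D1:**
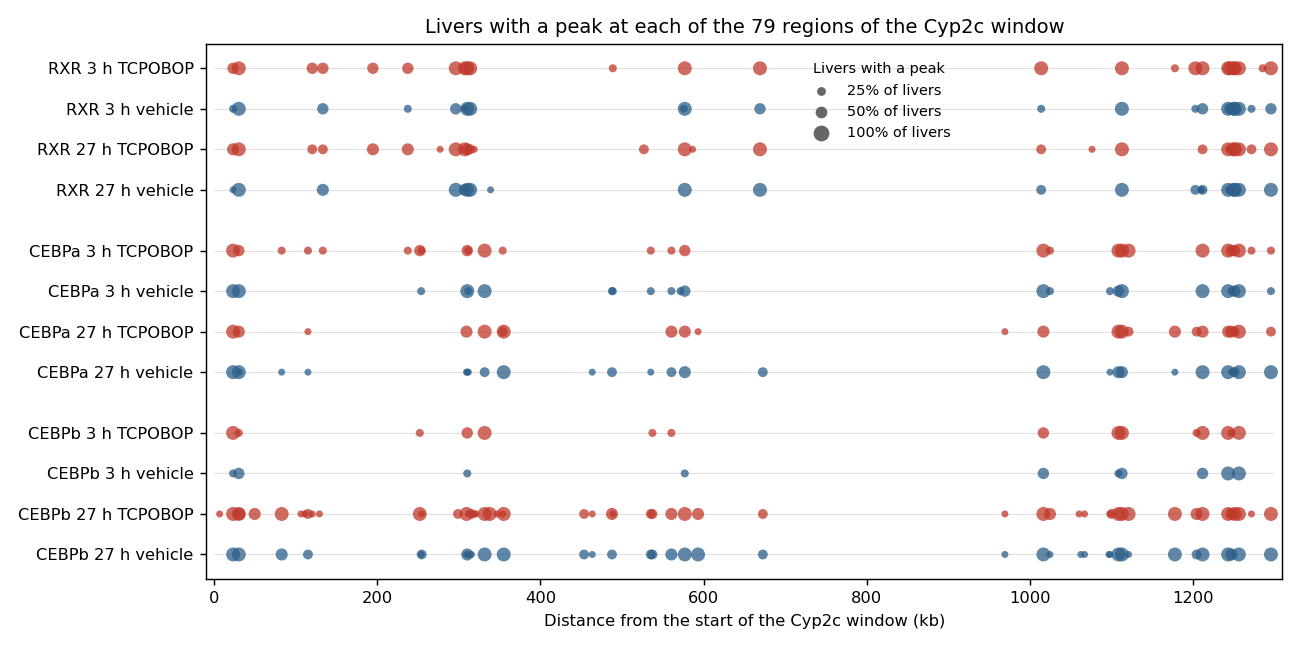
Each row is a factor, time and treatment, each point a region placed by its distance from the start of the window (kb), and the area of a point gives the share of that group's livers with a peak. All rows are empty between 700 and 900 kb, and the RXR rows are densest at 1200 to 1300 kb.

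The window as a whole was poorer in peaks than the rest of its chromosome. Its length of 1300 kb includes the empty stretch of 296583 bp, and the density without that stretch was not computed. The test below asks whether the livers agree on the lower density, and not whether the window is unusual among stretches of its length. RXR had 14.9 ± 4.9 peaks per Mb in the window and 23.1 ± 6.2 on the rest of chromosome 19 at 3 h (SD, n = 6 livers), a ratio of 0.629. At 27 h RXR had 14.4 ± 2.3 in the window and 18.9 ± 2.7 on the rest (n = 8 livers), a ratio of 0.762. The ratios of CEBPa were 0.736 at 3 h and 0.757 at 27 h, and those of CEBPb were 0.573 and 0.856. The density was lower in every liver except 2 for CEBPb at 27 h, and the two-sided exact sign-flip test over livers gave an adjusted p of 0.03125 for all 3 factors at 3 h and for CEBPb at 27 h, and of 0.0234 for RXR and CEBPa at 27 h (Benjamini-Hochberg over 6). With the window widened by 100 kb on each side the adjusted p for CEBPb at 27 h was 0.117 in the exact test, and on the full window without any 1 of 6 of the 8 livers (C1 to C4, D2 or D4) it was 0.0625. With the window narrowed by 100 kb on each side, which leaves out the dense last 100 kb, the log2 ratios were further from 0, at -1.51 for RXR, -1.09 for CEBPa and -2.07 for CEBPb at 3 h, and -1.14, -1.12 and -0.65 at 27 h, against -0.67, -0.44, -0.80, -0.39, -0.40 and -0.22 in the full window.

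Some regions were called in many of the 42 libraries. Peaks in at least 21 libraries were found at 13 of the 79 regions (16.5%, against 14.4% of all regions of the genome), a share near that of the genome. The region chr19:40305765-40307371, at 1256.6 kb, had a peak in all 42 libraries and in this it was alone in the window (1.27%, against 1.53% of all regions). Its CEBPb peaks at 27 h covered 980, 955, 644 and 921 bp in TCPOBOP livers D1 to D4, and 906, 886, 612 and 898 bp in vehicle livers C1 to C4. Its RXR peaks at 27 h covered 666, 549, 335 and 430 bp in TCPOBOP livers and 196, 244, 441 and 425 bp in vehicle livers, and the groups overlapped. The mean number of bases covered over its libraries was 706 bp, the highest of the window. Where a library had several peaks in a region, their bases were added, so this is not the width of a single peak. Peak width, added up in this way, is used here because it is the sole size that the lists hold. It is not a measure of occupancy.

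The next most often called were 4 regions. The region chr19:40293076-40293687 had a peak in 41 libraries, chr19:40162682-40163437 in 40, chr19:39079640-39080321 in 37 and chr19:40261604-40262392 in 35. At chr19:39079640-39080321 the RXR peaks were present in all 14 livers and covered 440 to 620 bp in TCPOBOP livers and 378 to 673 bp in vehicle livers, so the groups overlapped. RXR had a peak in all 14 livers at 7 regions of the 35 with any RXR peak, where 16.6% of all RXR regions had one, and a CEBP peak had been called at each of the 7. Of the 12322 regions of the genome with RXR in all 14 livers, 3792 had no CEBP peak.

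The share of a library's peaks that lay in the window was higher on average after TCPOBOP for each factor at each time. At 27 h it was 0.0760%, 0.0689%, 0.0752% and 0.0654% for RXR in TCPOBOP livers D1 to D4, and 0.0574%, 0.0603%, 0.0645% and 0.0470% in vehicle livers C1 to C4. For CEBPa it was 0.0619%, 0.0659%, 0.0624% and 0.0686% in TCPOBOP livers, and 0.0535%, 0.0540%, 0.0533% and 0.0485% in vehicle livers. For CEBPb it was 0.0756%, 0.0739%, 0.0763% and 0.0696% in TCPOBOP livers, and 0.0550%, 0.0592%, 0.0586% and 0.0603% in vehicle livers. In each of these 3 comparisons every TCPOBOP liver lay above every vehicle liver.

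The means at 27 h were 0.0714 ± 0.0051% in TCPOBOP and 0.0573 ± 0.0075% in vehicle livers for RXR (1.24-fold), 0.0647 ± 0.0032% and 0.0523 ± 0.0026% for CEBPa (1.24-fold), and 0.0738 ± 0.0030% and 0.0583 ± 0.0023% for CEBPb (1.27-fold; SD, n = 4 each). The two-sided exact permutation test gave p = 0.0286 for each factor, the smallest value that 4 against 4 livers allow, and an adjusted p of 0.0571 over the 6 comparisons, which is also the smallest that could be reached. The comparisons of the 3 factors share their livers and so are not independent. Across stretches of 1300 kb covering the genome, the share was higher in every TCPOBOP than in every vehicle liver in 2.23% for RXR, 1.66% for CEBPa and 2.73% for CEBPb, and lower in every TCPOBOP liver in 1.66%, 1.66% and 2.47%. A log2 ratio above that of the window was found in 9.66%, 3.68% and 6.58% of the stretches.

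At 3 h the share for RXR was 0.0666%, 0.0652% and 0.0528% in TCPOBOP livers B1, B3 and B4, and 0.0455%, 0.0452% and 0.0426% in vehicle livers A1, A3 and A4. These groups did not overlap either, the ratio of means was 1.39, and the two-sided exact permutation test gave p = 0.1, the smallest that 3 against 3 allow (adjusted p = 0.15), where 5% of the stretches of 1300 kb had the share higher in every TCPOBOP liver and 4.04% had it lower. For CEBPa at 3 h the means were 0.0638 ± 0.0144% for TCPOBOP livers and 0.0519 ± 0.0032% for vehicle livers, and for CEBPb 0.0553 ± 0.0133% and 0.0405 ± 0.0154% (SD, n = 3 each). In both the groups overlapped, with p = 0.4 and 0.3 in the exact permutation test. With the window narrowed by 100 kb on each side the log2 ratio for CEBPb at 3 h was 1.11, against 0.45 in the full window (adjusted p = 0.2 in the exact permutation test). Stretches with the share higher in every TCPOBOP liver made up 4.1% and 7.33%, and stretches with it lower 3.69% and 3.29%. The treatment difference at 27 h was not told from that at 3 h for any factor, with log2 ratios at 27 h minus those at 3 h of -0.15 for RXR, 0.01 for CEBPa and -0.11 for CEBPb, and p = 0.513, 0.958 and 0.744 in exact permutation tests (adjusted p = 0.958 for each over 3). For the CEBP factors the times also differ in the age of the mice and in the run code that the labels give, which cannot be told apart from time.

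By number of peaks no comparison passed the adjusted threshold, and the factors were not tested against each other. CEBPb at 27 h had 39, 41, 35 and 34 peaks in the window in TCPOBOP livers and 25, 28, 23 and 27 in vehicle livers, a ratio of means of 1.45 with no overlap (exact permutation p = 0.0286, adjusted p = 0.171 over 6). These CEBPb lists were longer as well, with 45877 to 55513 peaks in TCPOBOP and 39275 to 47279 in vehicle livers. CEBPa at 27 h had 18, 19, 18 and 14 peaks in TCPOBOP livers and 14, 19, 19 and 15 in vehicle livers, so the numbers were nearly equal and the higher share went with shorter lists, of 20396 to 29066 peaks in TCPOBOP and 26145 to 35663 in vehicle livers. RXR at 27 h had 25, 20, 17 and 19 peaks in TCPOBOP livers and 15, 19, 18 and 17 in vehicle livers, which overlapped. With lists cut to equal length, the log2 ratio of the shares at 27 h was 0.39 for RXR and 0.32 for CEBPb, each with an adjusted p of 0.0857 in the exact permutation test and every TCPOBOP liver still above every vehicle liver. For CEBPa it was 0.42 with an adjusted p of 0.214, and the groups were no longer fully apart.

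**Figure D2:**
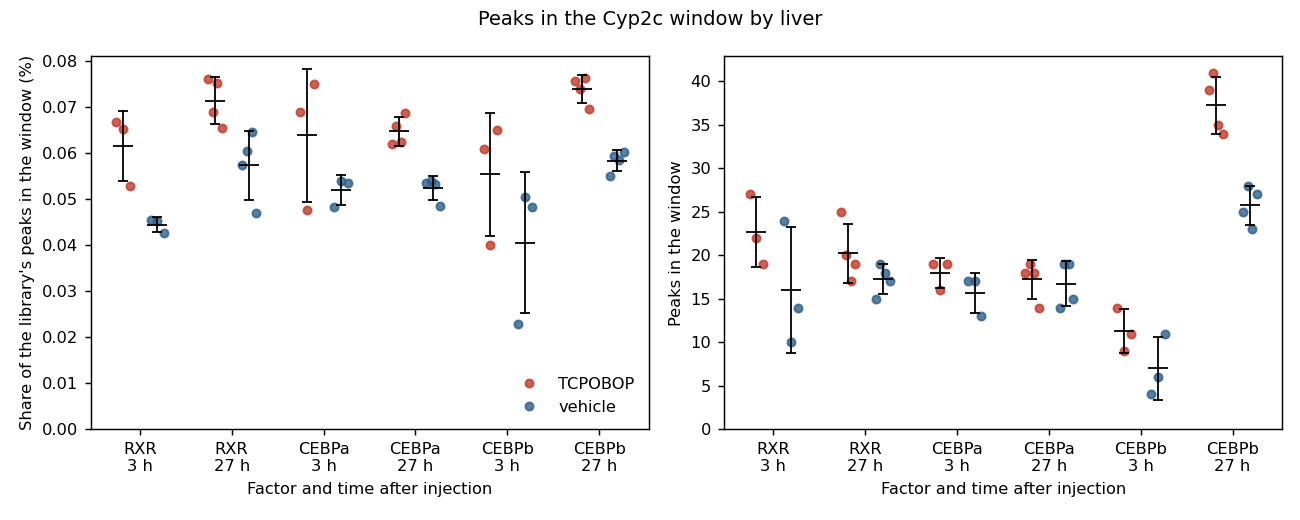
The left panel plots the share of each library's peaks that lay in the window (%), the right panel the number of these peaks, with 1 point per liver and the mean and SD in black. In the left panel the TCPOBOP points lie above all vehicle points for RXR at both times and for CEBPa and CEBPb at 27 h, and in the right panel for CEBPb at 27 h.

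Region by region, the calls leaned towards TCPOBOP in 5 of the 6 comparisons. Across the genome they also leaned towards TCPOBOP for RXR at 3 h, where slightly, and for CEBPb at both times. At 3 h RXR had a peak in more TCPOBOP than vehicle livers at 15 of 27 regions (55.6%, where 29.7% of all RXR regions did) and in fewer at 2 (27.9% of all). CEBPb at 3 h had more TCPOBOP livers at 11 of 16 regions (44.2% of all) and fewer at 2 (23% of all), and CEBPa at 3 h at 11 and 7 of 32 (27.4% and 33.1% of all). At 27 h CEBPb had more TCPOBOP livers at 27 of 58 regions (40% of all) and fewer at 6 (22.7% of all). RXR at 27 h had more at 11 and fewer at 7 of 31 (27.2% and 37.3% of all). CEBPa at 27 h had more at 12 and fewer at 15 of 33 (22% and 45.2% of all), which in number leaned towards vehicle, as it did across the genome.

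**Figure D3:**
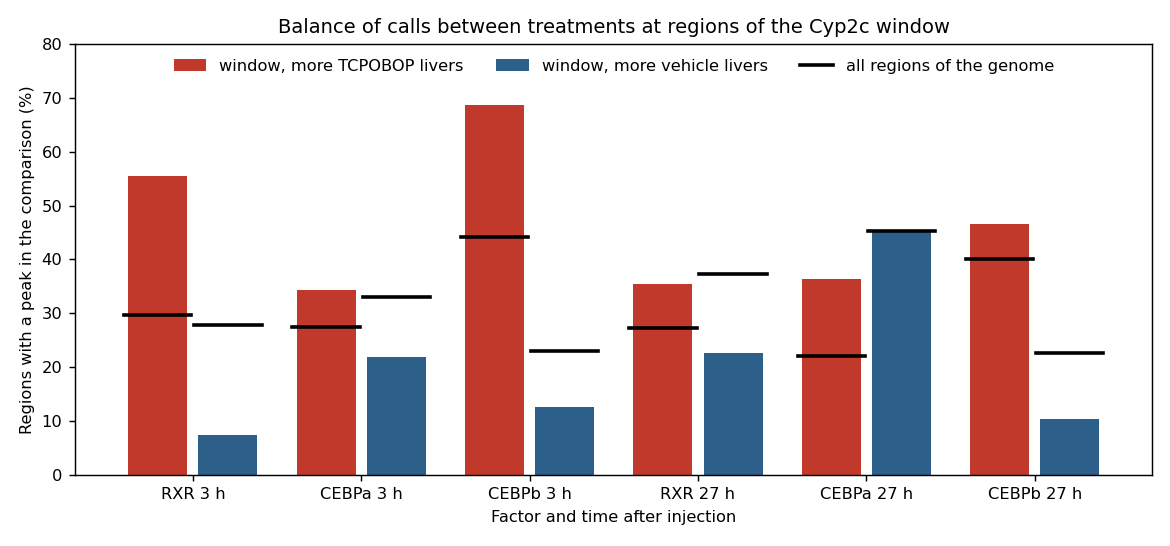
Bars give the percentage of the window's regions with a peak in the comparison that had more TCPOBOP livers (red) or more vehicle livers (blue), and black lines the same over all regions of the genome. The red bar stands above its line in every comparison, and the blue bar stands below it except for CEBPa at 27 h, where they nearly meet.

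There were 6 regions with peaks in at least 3 of the 21 TCPOBOP libraries and in 0 of the 21 vehicle libraries, which is 7.59% of the window's regions, where 1.05% of all regions were so. No region of the window had the opposite pattern, which 0.915% of all regions had. The rule behind these counts was chosen after the values were seen, and libraries at 27 h share livers across factors. All 6 lay between 49.5 and 353.7 kb, in the first part of the window.

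Of these, chr19:39301855-39302174, at 252 kb, had CEBPb peaks in all 4 TCPOBOP livers and 0 of 4 vehicle livers at 27 h, covering 239, 286, 255 and 210 bp. At 3 h it had CEBPa peaks in TCPOBOP livers D44 and D45, of 212 and 272 bp, and a CEBPb peak of 232 bp in D44, so that 7 TCPOBOP libraries and 0 vehicle libraries called it. RXR was never called there.

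The region chr19:39244262-39244756, at 194.5 kb, had peaks of RXR alone. They covered 493 and 205 bp in TCPOBOP livers B1 and B3 at 3 h and 349, 268 and 235 bp in TCPOBOP livers D1, D2 and D4 at 27 h, against none in the 7 vehicle livers of both times. Such a pattern of at least 5 of 7 TCPOBOP and 0 of 7 vehicle livers was found at 0.124% of all RXR regions. The cutoffs of this rule are the region's own counts, so the share is not a test. The RXR region chr19:39286952-39287654, at 237.3 kb had a like pattern with 1 exception. RXR was called there in 3 of 4 TCPOBOP livers at 27 h with 240, 400 and 270 bp, and in 0 of 4 vehicle livers, but at 3 h vehicle liver A1 had a peak of 419 bp beside those of TCPOBOP livers B1 and B3, of 305 and 280 bp. Over both times RXR had at least 4 more TCPOBOP than vehicle livers at 3 regions of 35 (1.02% of all RXR regions), these 2 and the next to be named, and at least 4 fewer at 0 (0.718%). The rules that pool both times were not among the planned ones, and they just admit these regions.

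A further RXR region with TCPOBOP peaks alone was chr19:39169906-39170224, at 120.1 kb, called in TCPOBOP livers B1 and B3 at 3 h and D1 and D4 at 27 h with 194 to 313 bp, and with a CEBPb peak of 214 bp in D1. The remaining 3 had CEBP peaks alone. The region chr19:39387567-39387803 had CEBPb peaks of 222, 234, 192 and 196 bp in the 4 TCPOBOP livers at 27 h and no other peak in any library. The region chr19:39099389-39099598 had CEBPb peaks of 191, 204 and 208 bp in TCPOBOP livers D1 to D3 at 27 h. The region chr19:39403521-39403945 had CEBPa peaks in D45 at 3 h and in D1 and D2 at 27 h, and a CEBPb peak in D1.

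By the stricter rule of a peak in every TCPOBOP liver and in no vehicle liver, CEBPb at 27 h gained 3 of its 58 regions (0.362% of all CEBPb regions). They are chr19:39301855-39302174, chr19:39387567-39387803 and chr19:40301024-40301721, and none was lost (0.0373% of all). At the third, at 1251.4 kb, the CEBPb peaks covered 499, 492, 516 and 448 bp in the TCPOBOP livers, against none in the vehicle livers. RXR occupied that region in all 14 livers, with 455 bp or more in each, and CEBPa was called in 2 TCPOBOP and 2 vehicle livers at each time, so that among the factors the calls of CEBPb alone followed the treatment. At 3 h CEBPb was not called there in any of the 6 livers.

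At 3 h CEBPa gained 1 of 32 regions (0.32% of all) and CEBPb 1 of 16 (0.6% of all). The CEBPa region was chr19:40170978-40171698, at 1121.3 kb, with 603, 239 and 499 bp in TCPOBOP livers D44, D45 and D46 and no peak in the vehicle livers. At 27 h it was called for CEBPa in 2 of 4 TCPOBOP livers and 0 of 4 vehicle livers, and for CEBPb in all 4 TCPOBOP livers, with 430, 498, 417 and 450 bp, and in 1 vehicle liver, with 196 bp. With lists of equal length this region was no longer gained. The CEBPb region was chr19:39381273-39381762, with 297, 289 and 288 bp in the TCPOBOP livers, while CEBPa was called there in all 6 livers at 3 h and CEBPb in all 8 livers at 27 h. RXR gained 0 regions at 3 h (0.292% of all) and 0 at 27 h (0.286%), CEBPa gained 0 at 27 h (0.0383%), and no factor lost a region at either time. Across the genome regions were lost at 0.113% for RXR, 0.558% for CEBPa and 0.0811% for CEBPb at 3 h, and at 0.234% for RXR and 0.207% for CEBPa at 27 h.

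Leaving out 1 liver loosens the rule, so these counts can rise and cannot fall. RXR at 3 h gained 3 regions without vehicle liver A1 and 2 without TCPOBOP liver B4. RXR at 27 h gained 1 without TCPOBOP liver D1 and 1 without D3. CEBPa at 3 h gained 2 without TCPOBOP liver D46, CEBPb at 3 h gained 3 without vehicle liver A46, and CEBPb at 27 h lost 1 without vehicle liver C1.

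At 27 h a difference of at least 3 livers towards TCPOBOP was found at 7 CEBPb regions (12.1% of 58, where 2.52% of all CEBPb regions had it), 2 RXR regions (1.4% of all) and 0 CEBPa regions (0.4% of all). Besides those already named, the CEBPb regions were chr19:39080520-39080944, with peaks of 219, 384 and 252 bp in TCPOBOP livers D1, D2 and D4 and none in vehicle livers, and chr19:39359035-39359484. The opposite difference was found at 1 CEBPb region (0.496% of all), chr19:39359944-39360532, and at 0 regions of RXR (1.89% of all) and CEBPa (2.14% of all).

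The last pair of regions lie beside each other, at 309.3 and 310.2 kb. CEBPb peaks at 27 h stood on the first in all 4 TCPOBOP livers and 1 vehicle liver, and on the second in 0 TCPOBOP livers and 3 vehicle livers, C2, C3 and C4. CEBPa at 27 h was called on the first in 3 TCPOBOP livers and 1 vehicle liver, and on the second in 0 TCPOBOP livers and 1 vehicle liver. RXR was called on the second alone, in 6 of 7 TCPOBOP livers and 7 of 7 vehicle livers over both times. At 3 h the first region had no CEBP peak, while on the second CEBPb was called in 2 TCPOBOP livers and 1 vehicle liver and CEBPa in 2 TCPOBOP livers and 3 vehicle livers, so the placing at 27 h was not seen at 3 h. The pair was set side by side after its values were seen.

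**Figure D4:**
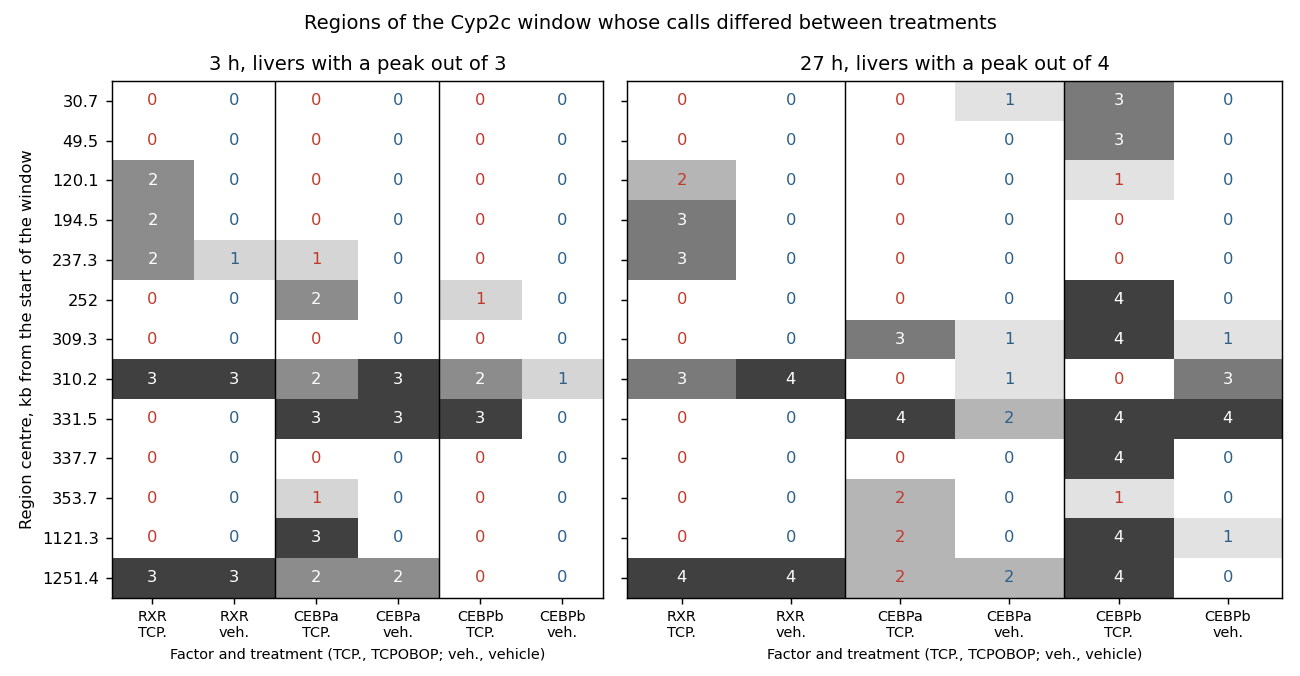
Each row is a region, given by the distance of its centre from the window's start (kb), each column a factor and treatment, and each number the livers with a peak, out of 3 at 3 h (left) and out of 4 at 27 h (right), with darker grey for a larger share. The vehicle columns are mostly at 0 except at 310.2, 331.5 and 1251.4 kb.

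Where a region was called in every liver of a comparison, peak widths could be compared. There were 9, 7 and 2 such regions for RXR, CEBPa and CEBPb at 3 h (27.5%, 26.4% and 20.4% of all regions), and 10, 3 and 13 at 27 h (23.9%, 20.6% and 25.8% of all). Of these 0 passed the threshold in limma with Benjamini-Hochberg adjustment over all shared regions of the genome. Across the genome 0, 1, 0, 4, 3 and 8 shared regions passed it, which is at most 0.0297% in 1 direction. In the window 0, 2, 0, 2, 0 and 1 had an unadjusted limma p under 0.05. That is 0%, 28.6%, 0%, 20%, 0% and 7.69% of them, against 4.82%, 5.25%, 4.94%, 7.34%, 5.60% and 6.21% of all shared regions. These shares rest on few regions and were not tested. The lowest p were those of CEBPa at 3 h. At chr19:40162682-40163437 its peaks covered 377, 461 and 416 bp in TCPOBOP livers and 325, 322 and 324 bp in vehicle livers, without overlap, a log2 difference of 0.47 (SE 0.12, limma adjusted p = 0.883). At chr19:40293076-40293687 they covered 410, 504 and 365 bp in TCPOBOP livers and 229, 384 and 239 bp in vehicle livers, which overlapped, a log2 difference of 0.72 (SE 0.19, limma adjusted p = 0.883). The lowest p at 27 h was that of the RXR region chr19:39345883-39346236, with widths of 299, 303, 317 and 296 bp in TCPOBOP livers and 229, 259, 219 and 215 bp in vehicle livers at 27 h. Every TCPOBOP width was above every vehicle width, the log2 difference was 0.42 (SE 0.13), and the limma adjusted p was 0.581. By bases covered, another wide region of the window was chr19:39642583-39643971, a CEBP region with a mean of 529.75 bp over 8 libraries. Others were chr19:39072526-39073542, called in 33 libraries, and chr19:40345113-40346588, called in 29.

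The same livers gave RXR and CEBP lists at 27 h, so overlaps could be counted within a liver. Of the CEBPa peaks in the window 44.4%, 42.1%, 33.3% and 35.7% overlapped an RXR peak of the same liver in TCPOBOP livers D1 to D4, and 42.9%, 31.6%, 47.4% and 46.7% in vehicle livers C1 to C4. The means were 38.9 ± 5.2% and 42.1 ± 7.3% (SD, n = 4 each; two-sided exact permutation p = 0.486). Of the CEBPb peaks 26.6 ± 4.8% in TCPOBOP and 29.3 ± 5.6% in vehicle livers overlapped one (exact permutation p = 0.486, adjusted p = 0.486 over 2). Neither difference passed the test. Over the whole lists, 33.1%, 27.3%, 22.5% and 34.9% of CEBPa peaks overlapped an RXR peak in TCPOBOP livers D1 to D4. In vehicle livers C1 to C4 these were 26.5%, 26.8%, 21.6% and 33.0%, so the window's share was higher in every liver. For CEBPb the whole-list shares were 19.9% to 31.5%, and the window's share was higher except in D4 and C2. Window and whole list were not tested against each other. For CEBPa the treatment difference depended on list length. With lists of equal length, which keep the widest peaks, the difference was -15.1 percentage points, against -3.22 on the full lists. The difference on equal lists had an adjusted p of 0.0571 over 2 in the exact permutation test.

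The ends of the window are set by position and not by a gap. The nearest region outside lay 4325 bp below its start and 58 bp above its end.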

How the data were processed

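ChIP-seq libraries of 42 immunoprecipitates and 4 inputs were compared. The submitters' processing notes name Bowtie2 2.3.2, MACS2 and mm9; for other settings, and for reads that match several places, nothing is given in the sources used here. Peak lists deposited by the authors, 1 per library, were used; they hold position and name and no score, so peak width in bp was the sole size and depth is unknown. Starts were raised by 1. Peaks overlapping by 1 bp were merged into regions over all 42 lists. The width of a library in a region was the sum of the bases that its peaks covered there. Shares of lists were compared in two-sided exact permutation tests, densities in exact sign-flip tests, and log2 widths at shared regions, centred on each library's median, in limma 3.58.1 (R 4.3.3), tested on simulated data. Adjustment followed Benjamini-Hochberg with a threshold of 0.05. Calls were set against the same calls over the genome. The members, gene lists and tests were chosen with earlier results of these data known. Regions named were those gained or lost, those differing by at least 3 livers at 27 h, the 5 called most often, the 5 widest and the 5 with the lowest width p per comparison, of which the text gives the main ones; the regions with peaks in 1 treatment only were added after the values were seen. Promoters were aligned with Biopython 1.88. In no pair of lists of a group did more than 0.0354% of peaks have the same start and end. Scripts ran in Python 3.11.15 with pandas 2.3.3, numpy 2.4.6 and scipy 1.17.1.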

Additional observations from a re-analysis of the deposited data

Results flagged for a closer look

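The share of the CEBPa list in the window in the lowest vehicle liver at 27 h, C4, was 0.0485%, apart from the 0.0533% to 0.0540% of the other 3 vehicle livers. Its gap to the nearest liver took up more of the group's range than Dixon's critical value for 4 samples allows. Among 22 groups examined, chance flags about 1 in 20.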

How the results depend on the processing

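The shares of lists in the window kept their direction under every alternative run, with log2 ratios of 0.31 to 1.11 in the narrowed window. Leaving out 1 liver gave log2 ratios of 0.41 to 0.57 for RXR at 3 h, 0.16 to 0.47 for CEBPa at 3 h, 0.16 to 0.64 for CEBPb at 3 h, 0.23 to 0.38 for RXR at 27 h, 0.27 to 0.33 for CEBPa at 27 h and 0.31 to 0.37 for CEBPb at 27 h. Without 1 liver, gained regions numbered 0 to 3 for RXR at 3 h, 1 to 2 for CEBPa at 3 h, 1 to 3 for CEBPb at 3 h, 0 to 1 for RXR at 27 h and 3 to 4 for CEBPb at 27 h, and lost regions 0 to 1 for CEBPb at 27 h. With lists of equal length CEBPa at 3 h gained 0. With a difference of at least 3 livers as the rule, gained regions at 27 h were 2 for RXR and 7 for CEBPb, and 1 was lost for CEBPb. Regions with peaks in TCPOBOP libraries alone numbered 6 under 5 alternatives and 8 without the RXR libraries of 3 h, and regions with vehicle peaks alone numbered 1 without the CEBPb libraries of 27 h. The alternatives for these regions with peaks of 1 treatment alone were chosen after seeing the data.

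Log2 densities against the rest of the chromosome were -0.74 to -0.61 for RXR, -0.52 to -0.39 for CEBPa and -0.91 to -0.61 for CEBPb at 3 h without 1 liver, where 5 livers allow no exact p under 0.0625, and -0.26 to -0.19 for CEBPb at 27 h. With the wider window the density of CEBPb at 27 h was -0.13. On lists of equal length the overlap with RXR differed by -15.1 percentage points for CEBPa (adjusted p = 0.0571, exact permutation test) and turned to 0.471 for CEBPb; the cause was not tested. The difference between times turned for CEBPa to -0.16 on peak numbers, and ranged from -0.16 to 0.14 for CEBPa and from -0.29 to 0.18 for CEBPb without 1 liver. Livers with the same number are different animals, and deviations of same-numbered livers correlated at -0.037 to 0.113 over 21 pairs. Of these pairs 9 correlated best with their own number, and how many chance would give was not worked out. Whether such livers share more than a number was not tested. With a replicate block the log2 ratio for RXR at 27 h stays at 0.32, since the block does not enter it. Its adjusted p was 0.25 in the exact sign-flip test, and so few pairs allow none lower. The block could therefore change no call of shares, and with it 0 widths were past the threshold. Depth is unknown, so a missing peak cannot be told from a shallow library.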
